A study of Rattus norvegicus with 10 samples.

Results

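The adipose consensus regions are the stretches of open chromatin that appeared in the peak list of every one of the 5 ATAC-seq libraries made from white adipose tissue of the abdomen of Fischer 344 rats. They were chosen by presence alone. The distinct peak intervals of the 5 adipose lists on the 20 autosomes were merged wherever they overlapped by at least 1 bp, and a merged region was selected as a member when it held an interval from all 5 lists. This rule selected 58591 of 651178 merged adipose regions. It used the adipose peak calls, and so the strength, width and summits of these regions in the adipose lists are given below as descriptions without a test. The lists of the 5 libraries from gastrocnemius muscle were not used by the rule.

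All 10 libraries came from Fischer 344 rats labelled male and 8 months of age, with no treatment in the labels. By the labels the groups differed in tissue alone: abdominal white adipose tissue or gastrocnemius, a skeletal muscle of the calf. Peaks on chromosomes X and Y went against the male label in some adipose libraries, as given below. The series compared open chromatin between the 2 tissues. The sample titles give the same rat numbers in both tissues, and do not say whether a number is the same animal. The tissues were taken from individual animals or from pulverized material pooled from 15 males, and the labels do not say which library is which. The spread between libraries may therefore be technical in part, and the p-values below measure that spread alone.

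ATAC-seq uses a transposase that inserts adapters where DNA is not wrapped around nucleosomes, so sites that are read often mark promoters, enhancers and other accessible DNA. White adipose tissue stores fat in adipocytes, but its nuclei also come from progenitors, fibroblasts, endothelial cells and immune cells, and a library of whole tissue averages over all of them. A site that is open in most of these cells, such as the promoter of a gene every cell uses, tends to give a stronger peak than a site open in few of them. In bulk tissue, fewer cells of a type and less open chromatin per cell cannot be told apart. No annotation of the rat build rn6 was used here, so the regions are given by position (rn6 coordinates) with no gene names, and the tissue label was not checked against marker genes.

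After rows that share an interval were joined, the adipose lists held 243928 to 259149 peaks and the muscle lists 164283 to 188890. The adipose lists stop at about the same length, and their weakest peaks have a −log10 p between 3.26 and 4.27. The muscle lists go deeper, to a −log10 p of 2.00. Read depth is unknown, because the lists carry no read totals. Adipose replicates 2, 3 and 4 went against their male label. Chromosome X held 3.26%, 2.78% and 3.47% of their peaks and chromosome Y held 0, 0 and 1 peak. In adipose replicates 1 and 5, chromosome X held 1.07% and 1.45% and chromosome Y held 31 and 45 peaks. The muscle libraries ranged from 1.41% to 1.74% for chromosome X and from 16 to 24 peaks for chromosome Y. The sex chromosomes were left out of the regions for this reason, and the main values on autosomes are also given for adipose replicates 1 and 5 alone and for 2, 3 and 4 alone.

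Most merged adipose regions were seen once. A single list held 413992 regions (63.6%), 2 lists held 101105 (15.5%), 3 lists 46151 (7.09%) and 4 lists 31339 (4.81%), while all 5 lists held 58591 (9.00%). The number of regions thus fell from 1 list to 4 and was higher again at 5. Because consensus regions were wide, they made up 51.2 Mb, or 22.6% of the 226 Mb covered by any adipose peak. The muscle lists merged into 307997 regions, of which 89333 (29.0%) were in all 5 lists and made up 55.1% of the covered length. Adipose replicates 1 and 5 alone shared 100005 regions, and replicates 2, 3 and 4 alone shared 81209.

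Recovery was measured in a library that had no part in choosing the regions. Of the regions in all 4 other adipose lists, the held-out list also held a peak in 84.3%, 90.0%, 93.5%, 91.3% and 93.1% for replicates 1 to 5, or 90.4% ± 3.73 (SD, n = 5). Regions in exactly 3 of the other lists were recovered at 57.5% ± 6.05, those in 2 at 31.6% ± 2.36 and those in 1 at 12.01% ± 0.564 (SD, n = 5 each). Replicate 1 recovered the fewest of the regions in 4 other lists, and replicate 3 the most. The same measure in muscle was 95.6% ± 1.49 (SD, n = 5) for regions in 4 other lists and 12.8% ± 1.99 for regions in 1. The held-out values of a tissue share libraries, so they were not tested. Between replicates 1 and 5 alone, 41.8% of the regions of the one list were recovered in the other. Among replicates 2, 3 and 4, 76.7% of the regions in the other lists were recovered.

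**Figure D1:**
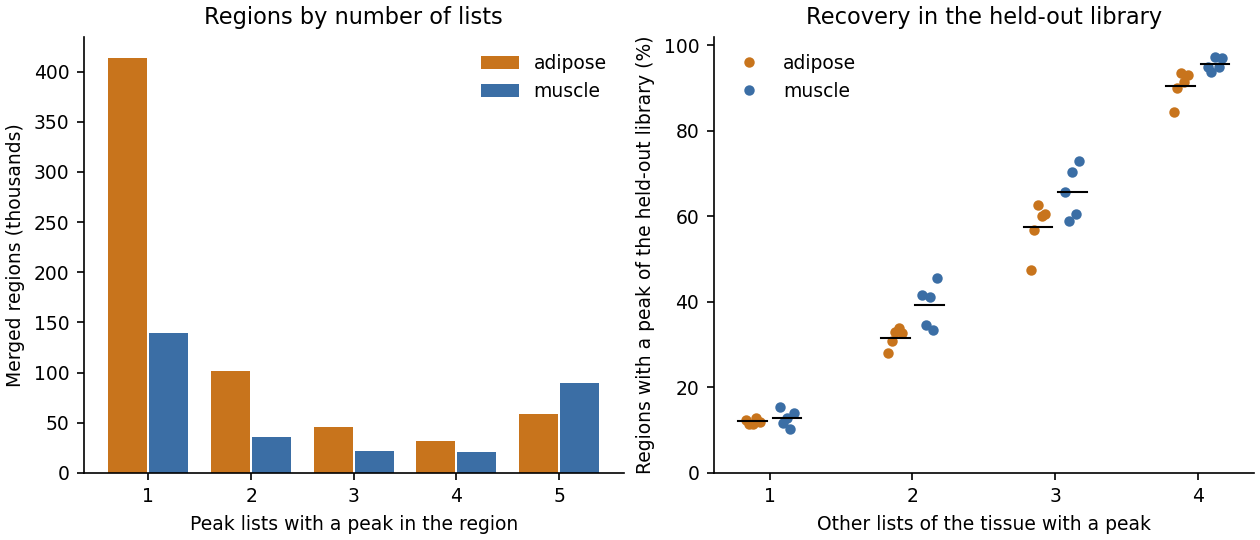
Left, the number of merged regions, in units of 1000, by the number of peak lists of the tissue that hold a peak in them, for adipose and muscle. Right, for regions with a peak in 1 to 4 of the other lists, the percent with a peak of the held-out library; each point is 1 library and the bar is the mean of 5. Adipose regions are most numerous at 1 list (413992), and recovery rises to 84.3% to 93.5% at 4 other lists.

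The held-out peaks also grew in strength and width with the number of other lists. Strength is given as the percentile of a peak's fold enrichment within its own list, where 100 is the highest, and a strong peak is one with a −log10 q of at least 5. Peaks with no partner in another adipose list had a median width of 199 bp ± 7.60 and a median percentile of 34.5 ± 2.08, and 6.69% ± 3.30 of them were strong (SD, n = 5 each). Peaks in regions of 4 other lists had a median width of 485 bp ± 42.5 and a median percentile of 83.7 ± 0.989, and 75.9% ± 9.59 were strong. The steps between were smaller, with median percentiles of 41.2, 48.2 and 59.0 for 1, 2 and 3 other lists, so the largest rise came between 3 and 4 other lists. Regions of more lists were wider, and wide peaks and regions meet more easily than narrow ones. The part of this in recovery, width and strength was not tested.

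Each adipose library placed about the same number of peaks in the consensus regions, 65666, 65295, 64704, 64689 and 65046 in replicates 1 to 5. This was 25.6% to 27.1% of a library's autosomal peaks, 43.0% ± 1.89 of the bases it called and 63.3% ± 6.998 of its strong peaks (SD, n = 5 each). The median fold enrichment over the caller's background was 4.50 ± 0.395 inside and 2.95 ± 0.0828 outside (SD, n = 5 each). The share of strong peaks inside was 59.2%, 76.4%, 83.5%, 80.8% and 78.6% in replicates 1 to 5, against 17.0% ± 6.12 outside, and replicate 1 was the lowest on both sides. The regions just outside the threshold, those in exactly 4 lists, had peaks with a median percentile of 55.6 to 61.2 and a median width of 277 to 332 bp over the 5 libraries. The regions just inside it had 82.2 to 84.6 and 416 to 528 bp.

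Of the 31339 regions that lacked 1 list, 10909 lacked replicate 1, 6515 replicate 2, 5545 replicate 4, 4325 replicate 5 and 4045 replicate 3. The missing library had a peak within 500 bp of 14.2% to 16.5% of them and within 1 kb of 23.5% to 27.6%. Most regions of 4 lists therefore had no peak of the remaining library close by. Among regions of exactly 3 lists, the set of replicates 2, 3 and 4 was the most frequent with 7338 regions and the set of 1, 2 and 3 the least with 3283. Among regions of exactly 2 lists, the pair of replicates 1 and 5 had the most with 12335 and the pair of 1 and 3 the fewest with 7919. The pairs followed in part the sets that were alike in peaks on chromosomes X and Y (1 and 5, and 2, 3 and 4). Within these sets, the pairs 2 and 3, 2 and 4 and 3 and 4 had 12193, 10371 and 9653 regions. Across them, the pairs 1 and 2, 1 and 3, 2 and 5 and 3 and 5 had 7958, 7919, 8083 and 9585, below every pair within a set. The pairs 1 and 4 and 4 and 5, also across the sets, did not follow this, with 11719 and 11289.

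The stretch that all 5 lists covered was compared with the whole merged region. The rule selected overlapping peaks, which favours common bases, and the common stretch cannot be wider than the region. These values are therefore descriptions. In 55527 consensus regions (94.8%) at least 1 base was covered by all 5 lists. The stretch common to all 5 had a median of 300 bp, 44.1% of the region's width, and these stretches came to 22.7 Mb. In the other 3064 regions (5.23%) overlapping peaks formed a chain in which no base was in every list. The strongest summits of the 5 libraries lay within a median span of 84 bp (interquartile range 39 to 249), and within 100 bp in 31867 regions (54.4%). Between any 2 libraries, the median distance of the strongest summits was 24 to 33 bp over the 10 pairs. In muscle, 98.3% of the consensus regions had a common base, with a median common stretch of 346 bp or 55.1% of the width.

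A peak in every list did not mean a strong peak in every list. Strong peaks were present in all 5 libraries for 30702 regions (52.4%) and in none for 1026 (1.75%). The weakest of the 5 peaks of a region had a median percentile of 68.2 (interquartile range 33.2 to 87.9), and in 6592 regions (11.3%) it lay in the lowest 10% of its list. The weakest peak was that of replicate 1 in 15677 regions (26.8%) and of replicate 2 in 13246 (22.6%), and of replicate 3 in 8658 (14.8%). Across the 58591 regions, the percentiles of 2 libraries had a Pearson r of 0.464 to 0.622 over the 10 pairs. These regions are not independent and were all selected on presence in both lists.

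The consensus regions had a median width of 814 bp, with an interquartile range of 593 to 1093 bp and extremes of 166 and 4364 bp. Merging over 5 lists widens a region by construction. Regions of 1, 2, 3 and 4 lists had median widths of 199, 345, 463 and 561 bp, and the muscle consensus had 737 bp. Within a single library the peaks in members had median widths of 416, 487, 528, 503 and 506 bp for replicates 1 to 5, and 228 bp ± 12.6 (SD, n = 5) outside. Replicate 1 had the narrowest peaks and covered a median of 65.0% of a region's width, whereas the other 4 libraries covered 75.8% to 79.2%. Replicates 1 and 5 alone gave a median region width of 501 bp and replicates 2, 3 and 4 alone 648 bp.

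Many regions held more than 1 summit, a local maximum at which the caller splits a peak. The mean number of summits per consensus region was 1.65, 1.74, 1.76, 1.70 and 1.82 in replicates 1 to 5, and between 48.7% and 56.4% of the regions had a single summit in a given library. The libraries often differed for the same region. A single summit in all 5 lists was found in 13989 regions (23.9%) and at least 2 summits in all 5 in 12856 (21.9%), while 31746 (54.2%) had a single summit in some lists and more in others. Summits were summed over all peaks of a library in a region, so separate peaks joined by merging also add summits. Over the 5 libraries, 9.78% to 11.2% of the regions held 2 or more peaks of a library. A single peak in each of the 5 lists was found in 42027 regions (71.7%). Neighbouring summits of the same peak lay a median of 268 to 280 bp apart inside the regions and 231 to 236 bp apart outside them, over the 5 libraries. Peaks with more than 1 summit made up 38.5% ± 3.30 of the peaks in members and 6.06% ± 1.25 of the others (SD, n = 5 each).

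Summit number rose with width. The 3711 regions of up to 400 bp had a mean of 1.01 summits per library, the 13322 regions of 601 to 800 bp had 1.37, and the 3709 regions over 1500 bp had 3.54. The median percentile of the peaks rose over the same classes from 72.8 to 92.8. The median span of the strongest summits was 47, 72, 97, 113, 95 and 172 bp from the narrowest class of width to the widest. It did not rise evenly, and a wider region leaves room for a larger span by construction.

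**Figure D2:**
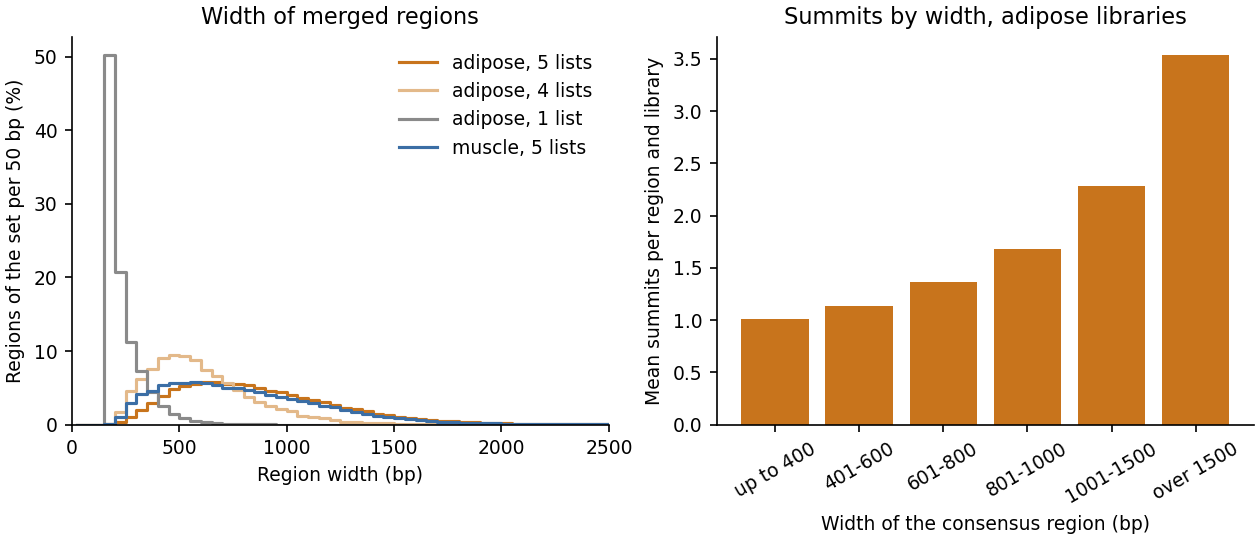
Left, the distribution of region widths (bp) as the percent of each set per 50 bp, for adipose regions of 5, 4 and 1 lists and muscle regions of 5 lists. Right, the mean number of summits per consensus region and adipose library in 6 classes of width (bp); it rises from 1.01 in regions of up to 400 bp to 3.54 in regions over 1500 bp.

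Over whole lists, which the rule did not select, adipose peaks had fewer summits than muscle peaks. The mean number of summits per peak was 1.20 ± 0.0268 in the adipose lists and 1.37 ± 0.0387 in those of muscle (SD, n = 5 each), a difference of -0.17 with an exact permutation p of 0.00794 (two-sided, 5 against 5, the smallest p this design allows). The tissues did not overlap. The lists end at a different −log10 p in the 2 tissues, and the size of the difference moved with the peaks counted. It was -0.23 among peaks whose highest −log10 p passed the same lower limit in all 10 lists (exact permutation p 0.00794). Among strong peaks alone it was -0.09 (exact permutation p 0.032). Both limits applied to peaks, so weaker summits of a kept peak still counted, and the list ends were not made equal for summits. With the replicate number as a block the difference was the same -0.17 (exact sign-flip permutation p 0.063, the smallest possible with 5 pairs). With adipose replicates 1 and 5 alone against the 5 muscle libraries it was -0.18 (exact permutation p 0.048), and with replicates 2, 3 and 4 alone -0.17 (exact permutation p 0.018).

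The broadest consensus region was chr6:140416959-140421322, at 4364 bp. It held 9, 9, 10, 11 and 8 summits in replicates 1 to 5, and its highest fold enrichment had a mean of 3.97 ± 0.398 (SD, n = 5). The lowest percentile that any adipose library gave it was 72.8. The region chr20:40869455-40873620, at 4166 bp, had the most summits, with 10, 13, 10, 11 and 10. Its mean fold was 3.10 ± 0.162 and its weakest peak ranked at the percentile 43.6. The regions chr9:8772881-8776594, chr20:40828375-40831852 and chr6:125359659-125363038 followed in width at 3714, 3478 and 3380 bp. These broad regions had mean folds of 3.10 to 5.76, far below those of the strongest regions, and all 5 of them held peaks in every muscle list.

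The strongest regions were ranked by the lowest percentile that any of the 5 adipose libraries gave them. The first was chr19:57975234-57975548, only 315 bp wide, with folds of 56.0, 50.0, 56.5, 57.0 and 57.9 in adipose replicates 1 to 5 and of 57.1, 55.8, 55.8, 55.5 and 56.3 in muscle replicates 1 to 5. The narrow region chr14:15692493-15692716, of 224 bp, had 49.6, 24.5, 52.7, 53.1 and 54.9 in adipose and a mean of 51.3 in muscle. Replicate 2 stood apart from the other 4 adipose libraries at both. The folds of both regions overlapped between the tissues, and each had a single summit in all 5 adipose libraries. No regions were filtered out as artefacts here, and how well these regions can be mapped in rn6 was not analysed.

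Most of the other strong regions were wider, but chr11:83225770-83226071 and chr20:48786565-48786815 were narrow at 302 and 251 bp. On chromosome 14, chr14:46517575-46518303 had a mean fold of 37.0 ± 3.50 in adipose (SD, n = 5) and 31.6 in muscle, and chr14:46329381-46329968 had 34.3 ± 2.02 and 30.0. Adipose and muscle means were farthest apart at 3 of the 10. The region chr3:134026538-134027311 had folds of 35.1, 38.3, 33.5, 38.6 and 36.2 in adipose and 23.8, 14.2, 17.0, 11.8 and 15.0 in muscle. The region chr1:180557537-180558675 had a mean of 31.7 ± 2.22 in adipose and 16.3 in muscle, and chr20:40898357-40899123 had 31.2 ± 3.26 and 16.3. The adipose and muscle libraries did not overlap at these 3, nor at the 2 wider regions on chromosome 14 or at chr20:48786565-48786815, where the means were closer. The regions were chosen for their adipose strength and folds depend on each library's background, so these differences were not tested. All 10 of the strongest regions held a peak in all 5 muscle lists.

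The muscle lists give a readout that the rule did not use. Of the 58591 consensus regions, 40546 (69.2%) held a peak in all 5 muscle lists, where the background over all 651178 merged adipose regions was 11%. No muscle list held a peak in 5793 of them (9.89%), against 74.2% of all merged adipose regions. The remaining members were spread over 1 to 4 muscle lists with 2478 to 4132 regions each. Width and strength moved with these counts. Regions with no muscle peak had a median width of 666 bp and a mean of 1.35 summits, and 17.5% of them were strong in all 5 adipose libraries. Those in all 5 muscle lists had 885 bp, 1.87 summits and 65.7%. The part of width and strength in these counts was not tested.

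The share of adipose regions with a peak of a given muscle library rose with each added adipose list. It was 5.75% ± 0.480 for regions of 1 adipose list, 12.9% ± 1.30 for 2, 25.2% ± 2.38 for 3, 43.9% ± 3.83 for 4 and 80.3% ± 2.97 for 5 (SD, n = 5 muscle libraries each). For the consensus regions the 5 muscle libraries gave 82.5%, 75.3%, 81.9%, 79.7% and 82.0%. The step from 4 to 5 lists was 36.4 percentage points ± 1.16 and was present in 5 of 5 muscle libraries. Its two-sided exact sign-flip permutation p was 0.063, the smallest that 5 libraries allow, so this design cannot pass 0.05. Among regions of 500 to 700 bp, a range chosen after seeing the data, the step was 29.7 percentage points ± 0.868, from 44.4% to 74.1%, with the same exact permutation p. With consensus regions from replicates 1 and 5 alone the step from the call number below was 46.3 points, and from replicates 2, 3 and 4 alone 45.9 points.

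**Figure D3:**
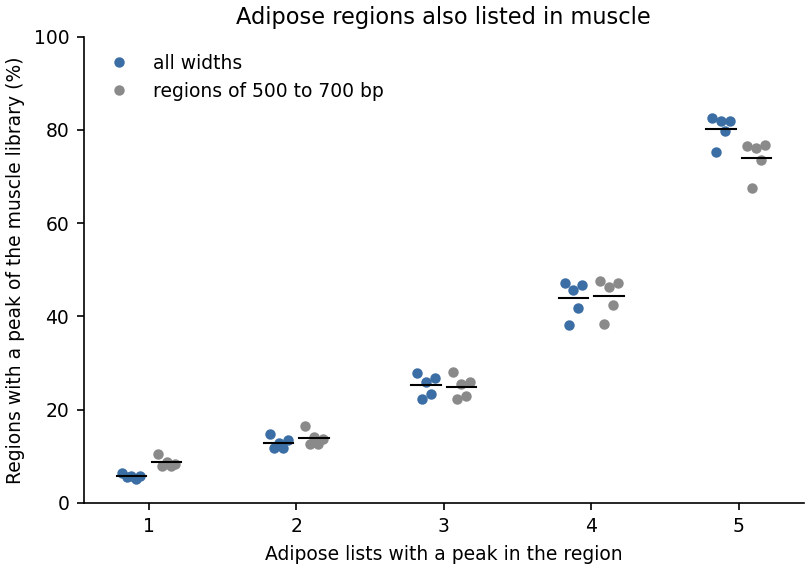
The percent of adipose regions that hold a peak of a muscle library, by the number of adipose lists with a peak in the region. Each point is 1 muscle library, the bar is the mean of 5, and grey points are regions of 500 to 700 bp alone; the share rises from a mean of 5.75% at 1 list to 80.3% at 5.

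Muscle peaks inside the adipose consensus regions were stronger and wider than the other muscle peaks. They were 30.3% ± 1.14 of a muscle library's peaks and 43.2% ± 2.75 of its strong peaks (SD, n = 5 each). Their median percentile of fold was 73.6 ± 1.07, against 40.2 ± 0.842 outside, and their median width was 542 bp ± 40.2 against 262 bp ± 15.5. More than 1 summit was listed for 45.8% ± 2.35 of them and for 16.7% ± 2.45 of the others. Each of these differences was present in 5 of 5 muscle libraries with an exact sign-flip permutation p of 0.063, the smallest possible here. For regions from adipose replicates 1 and 5 alone the difference was 31.8 percentile points and 244.8 bp, and for replicates 2, 3 and 4 alone 32.5 points and 244.6 bp. A wide peak meets a region more easily than a narrow one. The part of this in the differences in width, strength and summit number was not tested.

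Consensus regions were unevenly spaced, with most of the distance between them in a small share of long gaps. The median distance from the end of one to the start of the next was 14927 bp, with an interquartile range of 6196 to 37564 bp. The mean distance was 43760 bp and the SD was 2.47 times the mean. Of the 58571 distances, 38.1% were up to 10 kb and 6.36% up to 1 kb. At the other end, 5425 distances over 100 kb (9.26%) made up 57.3% of the length between regions. Regions of exactly 4 lists had a median distance of 43293 bp and an SD of 1.50 times the mean, and the more numerous muscle consensus regions had 8073 bp and 4.76 times. The median distance was 11659 bp with adipose replicates 1 and 5 alone and 11974 bp with replicates 2, 3 and 4 alone, where more regions were kept.

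The distribution of distances had a step between 4 and 5 kb. There were 1694 distances of 3 to 4 kb between consensus regions, 2670 of 4.5 to 5.5 kb and 2140 of 6.5 to 7.5 kb. The muscle consensus had 4469, 6003 and 4198 in the same ranges, whereas the distances between adipose regions of 1 list fell without a step, from 34119 to 26823 and 18890. The step was present in each peak list before merging. Measured from strongest summit to strongest summit of neighbouring peaks, the ratio of the number of distances of 5 to 6 kb to that of 4 to 5 kb was 1.29, 1.27, 1.23, 1.29 and 1.25 in adipose replicates 1 to 5. It was 1.16 to 1.27 in the 5 muscle libraries. These ranges were chosen after seeing the data. The cause was not tested, and no source used here gives the settings of the peak caller.

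**Figure D4:**
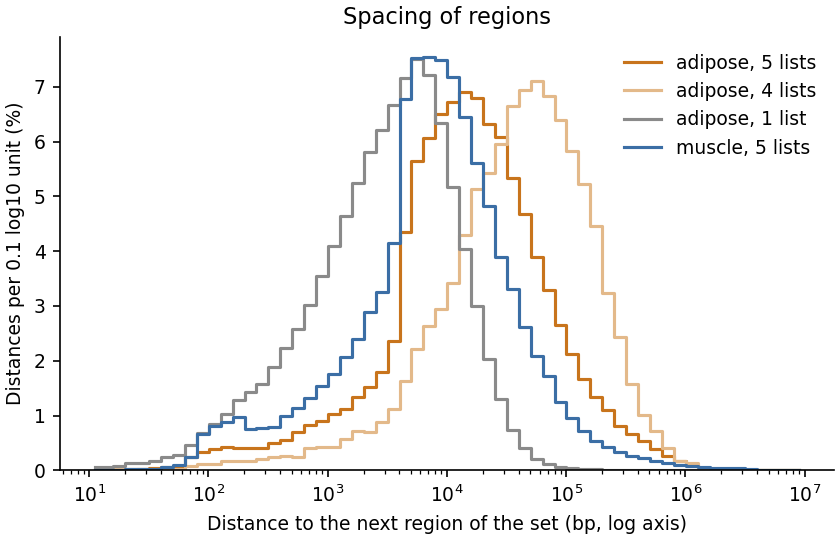
The distance from each region to the next of the same set (bp, log axis), as the percent of distances per 0.1 log10 unit, for adipose regions of 5, 4 and 1 lists and muscle regions of 5 lists. The adipose and muscle consensus curves rise steeply between 4 and 5 kb; the median of the adipose consensus is 14927 bp.

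Joining neighbours no more than 10 kb apart gave 36292 runs, of which 24395 were single regions (41.6% of the members). Only 106 runs had 10 or more regions, with 1404 members in all (2.40%). The longest run was chr16:21720762-21889572, with 61 consensus regions in 169 kb that covered 27.3% of its length. It was dense in every list, with 81, 94, 90, 92 and 88 adipose peaks and 76, 86, 74, 80 and 76 muscle peaks. Its median percentile of fold was 53.3, and 46 of the 61 regions were in all 5 muscle lists. A second run of 36 regions, chr16:22002107-22145378, lay close by with a median percentile of 61.5. The run chr1:55672125-55775294 was alike, with 35 regions of a median percentile of 45.0. The runs chr7:126511366-126619801 and chr1:195805248-195906936 differed from these, with 17 and 21 regions of median percentiles 85.6 and 82.3. At the last of these, 9 of 21 regions were in all 5 muscle lists.

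The longest stretch without a consensus region was chr12:32759993-36516013, 3.76 Mb. It was not empty of peaks, with 71, 34, 31, 24 and 35 peaks in adipose replicates 1 to 5 and 48 to 58 in the muscle libraries, and it held 30 muscle consensus regions. The stretch chr10:7291449-10529522, 3.24 Mb, was of the same kind, with 50 to 121 adipose peaks, 118 to 144 muscle peaks and 68 muscle consensus regions. Others were nearly bare in muscle as well. The stretch chr10:78229595-81505179, 3.28 Mb, had 52, 25, 71, 25 and 10 adipose peaks, 1 to 6 muscle peaks and no muscle consensus region. The stretches chr14:94648504-97533129 and chr15:29514280-32386518 had 2 and 0 muscle consensus regions. How much of each stretch can be mapped in rn6 was not analysed here.

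The density of consensus regions varied 1.84-fold over the autosomes. It was 22.4 per Mb over all of them, highest on chromosome 10 with 32.3, chromosome 20 with 29.3 and chromosome 12 with 29.2, and lowest on chromosome 15 with 17.5. Widths hardly varied, with chromosome medians of 799 to 847 bp. Regions seen once were arranged in the opposite way. Adipose regions of 1 list numbered 87.0 per Mb on chromosome 10 and 87.7 on chromosome 12, and up to 182 on chromosome 4. As a result, consensus regions took 45.5% ± 5.03 of a library's peaks on chromosome 10 and 43.8% ± 4.66 on chromosome 12, but 20.7% ± 1.52 on chromosome 2 and 20.9% ± 1.09 on chromosome 15 (SD, n = 5 each). On 18 of 20 autosomes the share of consensus regions and the share of single-list regions lay on opposite sides of the chromosome's share of length. The muscle consensus and the adipose consensus lay on the same side on 19 of 20, and muscle was also densest on chromosome 10 with 54.7 per Mb.

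**Figure D5:**
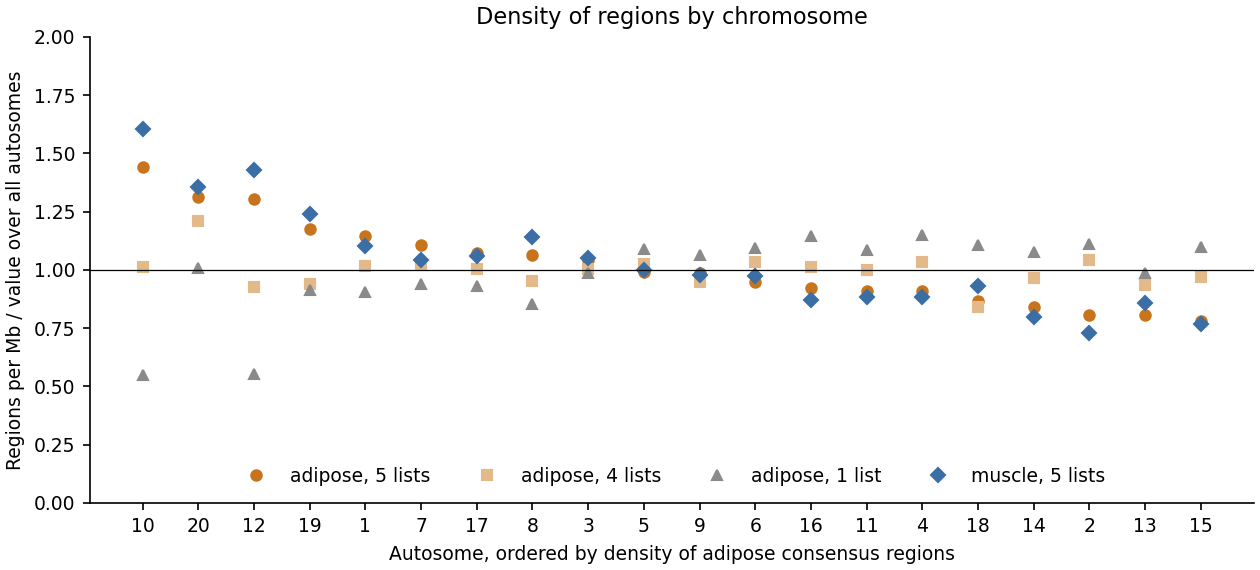
Regions per Mb on each autosome divided by the value over all autosomes, with autosomes ordered by the density of adipose consensus regions; symbols are adipose regions of 5, 4 and 1 lists and muscle regions of 5 lists. Chromosome 10 is highest for the adipose and muscle consensus (32.3 and 54.7 per Mb) and lowest for adipose regions of 1 list (87.0 per Mb).

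In windows of 1 Mb the contrast was the same. The 2628 windows held a median of 18 consensus regions (interquartile range 7 to 33.25), 54 held none, and the densest 10% of windows held 27.1% of all members. The richest window was that from 21 to 22 Mb of chromosome 16, with 129 regions, followed by 2 windows with 106 regions, on chromosomes 1 and 3. From the poorest to the richest 10% of windows, the mean number of consensus regions rose from 1.52 to 60.5 and that of regions of 4 lists from 6.34 to 20.1. The mean number of regions of 1 list was 175 in the poorest 10%, 194 in the next and 118 in the richest. Muscle consensus regions rose from 2.55 to 88.4.

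Across windows, the number of adipose consensus regions had a Pearson r of 0.892 and a Spearman rho of 0.901 with the muscle consensus. With adipose regions of 4, 3, 2 and 1 lists the Pearson r was 0.634, 0.103, -0.30 and -0.43. All counts share the windows and their mappable length and base composition, and the adipose counts share libraries, so these are descriptions. The negative relation to single-list regions was not uniform. It was negative on 18 chromosomes but positive on chromosome 10 with 0.607 and chromosome 12 with 0.709, and by the replicate that held the single peak it ran from -0.58 for replicate 4 to -0.04 for replicate 3. It also moved with the strength of the peaks. With the consensus as above, r was -0.15 for single-list regions with a strong peak and -0.44 for the others. When both sets of regions were rebuilt from strong peaks alone r was 0.000768, and from the 50000 strongest peaks of each library it was 0.573. The cause was not tested. With replicates 1 and 5 alone it was -0.02 and with replicates 2, 3 and 4 alone -0.37. The relation to the muscle consensus ran from 0.786 to 0.896 over 20 alternatives, with 0.786 for replicates 1 and 5 alone and 0.889 for replicates 2, 3 and 4 alone.

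Along a chromosome, consensus regions were denser near the end of the numbering. When each chromosome was cut into 10 equal parts, the last 3 parts held 12.04%, 11.9% and 11.97% of the members, and the third held the fewest, 7.76%. Muscle consensus regions had 12.02%, 12.4% and 12.6% in the last 3 parts and 6.99% in the third. Single-list adipose regions varied less, from 9.26% to 10.5% per part.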

How the data were processed

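The peak list of each of 5 adipose and 5 muscle ATAC-seq libraries was analysed. The series design mentions 9 per tissue, and the rest were not analysed here. Each library took about 75000 nuclei, per the labels' protocols. Per the submitters' processing notes, the tools were MACS2, Picard, Bowtie2, Trimmomatic and FastQC and the build was rn6, with no roles or settings named. A shift of reads for the transposase, the treatment of duplicate and mitochondrial reads and the caller's local background are each not given in the sources used here.

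Each library has 1 deposited narrowPeak list, which gives for each peak a score, a fold over background at the summit, the −log10 p-value and −log10 q-value, and the summit offset, all by the authors. The score was not used. Folds were ranked within a list to give percentiles, and are set side by side between libraries as descriptions. Adipose lists have 298639 to 299093 rows and end at differing −log10 p-values, and muscle lists have 227958 to 251869 rows and end at 2.00, which bears on every count.

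Rows with the same interval were joined as 1 peak with several summits. Intervals on autosomes 1 to 20 were merged within a tissue where they overlapped by at least 1 bp. Chromosome length is the extent covered by any list. Tests were two-sided exact permutations over libraries: 5 against 5, or sign flips over the 5 muscle libraries. Members named are the 10 with the best lowest percentile, the 5 widest, the 5 with the most summits, the 5 longest gaps and runs, and the 5 fullest 1 Mb windows. A rule for genes and marker lists needed an rn6 annotation and was not used. The members and lists were chosen with earlier results of these data known. The 500 to 700 bp range, the common −log10 p floor of 4.27, the window correlations with their alternatives and the distance ranges near 5 kb were added after seeing the data.

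The merging was tested on simulated lists of 5000 sites. It found 200 of 200 sites planted in all 5 lists. On a small piece of the real adipose lists it gave 0 differences from a direct count. Scripts ran in Python 3.11.15. They used pandas 2.3.3 for tables, NumPy 2.4.6 for merging, SciPy 1.17.1 for ranks and matplotlib 3.10.9 for plots.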

Additional observations from a re-analysis of the deposited data

Results flagged for a closer look

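In 40 sets of 5 library values, the gap of the highest or lowest library to its nearest neighbour was set against the range of the 5. In 4 sets 1 library stood apart by Dixon's criterion, and chance gives about 1 in 20. Adipose replicate 1 had the lowest share of its peaks in the consensus regions, 25.6%, where the other 4 adipose libraries had 26.9% to 27.1%. Its count of peaks there was the highest of the 5, 65666, and so was its number of autosomal peaks, 256339. The same library covered the least of a region's width, a median of 65.0%, where the others covered 75.8% to 79.2%. Adipose replicate 2 had the lowest fold at chr19:57975234-57975548, 50.0, where the other adipose libraries had 56.0 to 57.9. It also had the lowest fold at chr14:15692493-15692716, 24.5, where the other adipose libraries had 49.6 to 54.9.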

How the results depend on the processing

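Without read totals, an absent peak may be a site below the end of a list. The number of regions was 30693 with strong peaks alone, 23891 with the 50000 strongest peaks per library, 30635 where each library had to cover 50% of the region, 100005 with adipose replicates 1 and 5 alone, and 62528 to 69441 with 1 library left out. In the same order, where it moved, the median width was 935, 996, 501 and 740 to 757 bp, with 998 bp for 500 bp around each summit and 648 bp for replicates 2, 3 and 4. The median distance was 25451, 31922, 26084, 11659 and 13084 to 15082 bp, with 16544 bp for the common floor and 11974 bp for replicates 2, 3 and 4. Held-out recovery was 41.8% for replicates 1 and 5, 76.7% for 2, 3 and 4 and 85.1% to 86.6% with 1 library left out, by construction with fewer other lists. The step in muscle sharing kept its direction in 19 alternatives (24.5 to 46.3 points), and the strength (22.9 to 37.0 points) and width (245 to 395 bp) of muscle peaks in 18 and 17. Width was not computed for intervals of fixed length around summits. The window correlation with single-list regions was near 0 for strong peaks (0.000768) and for replicates 1 and 5 (-0.024), and turned positive for the 50000 strongest (0.573); the cause was not tested. With the replicate number as a block, the tissue difference in summits per peak was the same -0.17 with an exact permutation p of 0.063, the smallest possible with 5 pairs, and every other alternative left it past 0.05 (-0.23 to -0.09). The sample titles give the same rat numbers in both tissues, but the labels do not state whether a number is the same animal. Deviations of same-numbered libraries in chromosome shares had correlations of 0.372, -0.26, 0.376, -0.80 and 0.180 for numbers 1 to 5. These values cannot decide whether animals are shared. The numbers were not taken as pairs in the main test, and its p depends on this choice.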

Other observations

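By the same merging rule, chromosome X held 19098 adipose regions, of which 958 (5.02%) were in all 5 lists, with a median width of 912.5 bp. Replicates 2, 3 and 4 had 8096, 6877 and 8621 peaks there and replicates 1 and 5 had 2779 and 3527. Regions in exactly replicates 2, 3 and 4 numbered 343, and regions in exactly replicates 1 and 5 numbered 63.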
